A study of Mus musculus with 50 samples.

Results

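The proteasome and immunoproteasome gene set comprised the rows whose Ensembl identifier maps to a protein-coding gene with a symbol of the form Psma to Psmg followed by a number. It held 49 of the 21647 genes in the table of counts. Of these, 48 passed the filter on low counts and were tested; Psmb11, the thymus-specific catalytic subunit, did not and stayed at or below 0.254 CPM (counts scaled to the size of the library) in every library. The set was defined by name and not by any measured value, though earlier results of these data were known when it was chosen. Psmc3ip carries the name form but encodes a recombination factor that is no proteasome subunit.

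RNA-seq counts were available for CD8+ T cells isolated with anti-CD8a beads from the spleens of 10-week-old mice of a C57BL/6 background (written C567BL/6J in the labels). Wild-type (WT) mice and knockout (KO) mice of 1 line, 5 of each genotype, were sampled as naive cells at 0h and after 2, 6, 12 and 24h on plate-bound anti-CD3e (2 ug/ml) with soluble anti-CD28 (2 ug/ml), which mimic antigen and costimulation. The same numbered mouse gave a library at every time, so the 50 libraries come from 10 mice. The labels describe the knockout as a property of the mice and name no cell type to which it is limited.

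The 20S core of the proteasome is a barrel of outer alpha and inner beta rings, and the active sites sit on the beta subunits Psmb5, Psmb6 and Psmb7. Psmb8, Psmb9 and Psmb10 are the inducible counterparts that replace them in the immunoproteasome; interferon gamma raises their expression in many tissues, lymphocytes carry them at rest, and they favour peptides that fit MHC class I. The 19S cap of ATPase (Psmc) and non-ATPase (Psmd) subunits binds, unfolds and feeds ubiquitinated proteins into the core. Psme1 and Psme2 form the alternative cap PA28 alpha-beta, Psme3 the nuclear PA28 gamma and Psme4 the activator PA200, while the Psmg proteins are chaperones that assemble the core.

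Promoter sequences are shown for catalytic subunits of both kinds because the immunosubunits and their constitutive counterparts moved in opposite directions. RefSeq windows (GRCm38.p6) from 250 bases before to 50 after the start were found for 41 of the 49 genes, in 44 windows. The 250 bases before the start are given 5′ to 3′ on the gene's own strand. Capitals mark a match in Psmb8 to TTCNNNGAA (the gamma-activated site bound by STAT factors), in Psmb9 to CCAAT read on the other strand, and in Psmb5 and Psmb6 to TGACNNNGC (the antioxidant response element bound by NRF1 and NRF2). The Psmb8 window is chr17:34197945-34198194 (+), the Psmb9 window chr17:34187331-34187580 (-), the Psmb5 window chr14:54617996-54618245 (-) and the Psmb6 window chr11:70525107-70525356 (+). The Psmb8 and Psmb9 windows lie inside their GENCODE gene models, which begin farther upstream, and the Psmb6 window lies before its model.
Psmb8: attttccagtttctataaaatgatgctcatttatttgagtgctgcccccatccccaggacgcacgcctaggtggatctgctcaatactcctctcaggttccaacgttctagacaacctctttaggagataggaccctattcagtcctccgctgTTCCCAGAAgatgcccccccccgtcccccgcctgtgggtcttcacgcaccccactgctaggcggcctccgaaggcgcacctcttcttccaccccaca
Psmb9: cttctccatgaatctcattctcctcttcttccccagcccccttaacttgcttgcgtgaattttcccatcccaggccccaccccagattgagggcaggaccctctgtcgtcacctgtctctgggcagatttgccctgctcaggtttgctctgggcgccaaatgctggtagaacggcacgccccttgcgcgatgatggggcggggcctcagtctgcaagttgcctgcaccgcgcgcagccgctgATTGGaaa
Psmb5: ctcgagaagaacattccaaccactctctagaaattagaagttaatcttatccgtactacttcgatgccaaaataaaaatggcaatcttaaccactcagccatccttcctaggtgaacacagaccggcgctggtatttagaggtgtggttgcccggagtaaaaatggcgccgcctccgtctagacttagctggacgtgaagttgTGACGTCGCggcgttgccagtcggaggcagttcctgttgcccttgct
Psmb6: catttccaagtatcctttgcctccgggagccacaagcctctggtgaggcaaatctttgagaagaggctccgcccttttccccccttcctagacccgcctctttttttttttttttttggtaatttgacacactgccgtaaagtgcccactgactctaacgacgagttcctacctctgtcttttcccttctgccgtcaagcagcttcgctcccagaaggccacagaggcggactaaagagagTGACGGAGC

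Searched on both strands over the 300 bases, TTCNNNGAA was in 3 of the 44 windows of the set (6.82%) and in 8.3% of all 32851 RefSeq windows. TGACNNNGC was in 6 windows (13.6%, against 12.4% of all) and CCAAT in 15 (34.1%, against 37.4%). The interferon-stimulated response element, searched as a pair of GAAA with 2 bases of any kind between them, was in 5 (11.4%, against 3.44%) and in none of the 3 immunosubunit windows, and the E-box CACGTG in 4 (9.09%, against 7.15%). These are letter matches and say nothing of binding.

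Library totals ran from 9571625 to 31293872 counts (median 23548632). Some WT libraries stood apart. At 0h, the summed CPM of 9 immature thymocyte markers was 2016 and 1567 in WT mice 1 and 4, against 234 to 439 in WT mice 2, 3 and 5 and 272 to 435 in KO, and their 15 mitosis genes summed to 6934 and 5585 CPM against 136 to 209 and 325 to 1223. The naive library of WT mouse 3 also stood apart: it had the highest value of the WT mice for 28 of the 48 tested genes, and its deviation from its group fell with exon length (Spearman rho of -0.32 across 13286 genes). The WT counts over the set, and the WT values of the single catalytic genes, are also given without these libraries. Ratios of catalytic genes were retested without WT mice 1 and 4 and without any 1 mouse, but not without all of these libraries. Leaving out the naive library of WT mouse 3 is a choice made after the values were seen. A fit that also leaves out WT mice 1 and 4 keeps only the naive WT libraries of mice 2 and 5. Every WT change from 0h in that fit rests on these libraries. In KO the naive library of mouse 3 was alike in part: it was the highest of the 5 KO mice for 33 of the 48 genes, its rho with exon length was -0.27, and its total of 12773186 counts was below the 22571616 to 23207373 of the other naive KO libraries. Without KO mouse 3 the calls in KO were 5 higher and 5 lower at 2h, 34 and 2 at 6h, 38 and 2 at 12h, and 37 and 0 at 24h. The shares over all genes in that fit are not given here. The part of length, depth and cell mix in any result was not tested. The sum of 9 B cell markers in KO was 75.0 to 360.1 CPM in naive cells and 14.0 to 24.9 after 24h. In bulk libraries fewer cells of a type and less RNA per cell cannot be told apart.

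Most proteasome genes rose after activation in KO, while the 3 immunosubunits were lower at 12h. At 24h Psmb10 alone of these was still called lower. In WT mice 1 and 4 the sum of the immunosubunits rose instead, from 462 and 476 CPM at 0h to 1002 and 1042 at 12h. In KO, 35, 37 and 37 of 48 genes stood higher at 6, 12 and 24h than in naive cells, and 2, 3 and 1 lower (edgeR quasi-likelihood test, Benjamini-Hochberg adjusted p under 0.05 over 13294 genes). Over all genes, 26.8, 27.8 and 30.7% were higher and 22.4, 25.0 and 28.0% lower at these times. At 2h the set was split, with 6 genes higher and 7 lower (20.3 and 19.6% over all genes). The median log2 change of the set in KO was 0.01, 0.77, 1.16 and 1.08 at 2, 6, 12 and 24h, beside -0.08, -0.04, -0.03 and 0.02 for all genes. Under unscaled library totals the median of all genes was -0.25, -0.21, -0.21 and -0.14, and that of the set -0.16, 0.61, 0.98 and 0.91. All changes from 0h within a genotype share that genotype's 0h libraries.

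In WT no gene was higher and 10 were lower at 2h by edgeR (14.0 and 16.2% over all genes), 21 were higher and 2 lower at 6h (20.2 and 19.7%), 30 higher and 1 lower at 12h (19.3 and 20.2%), and 23 higher and 1 lower at 24h (19.9 and 24.2%). At an unadjusted p under 0.05, or by DESeq2, 1 was higher and 13 lower at 2h. Shares over all genes for these counts are not given here. Median changes were -0.12, 0.48, 0.75 and 0.48. Leaving out WT mice 1 and 4 gave 6 higher and 17 lower at 2h (21.9 and 27.7% over all genes), 28 and 3 at 6h (28.6 and 31.2%), 34 and 3 at 12h (28 and 32.2%), and 30 and 3 at 24h (32.5 and 32%). Leaving out the naive library of WT mouse 3 as well turned the balance at 2h and gave 23 higher and 5 lower at 2h (22.4 and 24.6% over all genes), 41 and 2 at 6h (29.6 and 30.8%), 43 and 3 at 12h (30.8 and 31.8%), and 43 and 1 at 24h (34.6 and 32.2%). Naive WT cells were then mice 2 and 5 alone. The 2h library of WT mouse 3, kept in that fit, had the lowest total of all libraries (9571625 counts). Leaving out WT mouse 3 alone gave 2 higher and 4 lower at 2h and 34 higher and 1 lower at 6h, for which the shares over all genes are not given here.

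Between successive times, most of the movement fell from 2h to 6h. In that step 34 genes rose and 1, Psme4, fell by 0.36 in KO (24.2 and 19% over all genes), and 23 rose and none fell in WT (16.1 and 13.2%). From 6h to 12h edgeR called no gene in either genotype (1.31 and 1.55% over all genes in KO, 0.444 and 0.165% in WT). At an unadjusted p under 0.05, 13 were higher and 2 lower in KO and 7 higher in WT, and DESeq2 called 1 higher in KO. Shares over all genes for these last counts are not given here. From 12h to 24h the immunosubunit Psmb9 was the 1 gene that rose in KO (5.6 and 4.42%). In WT over that step Psmd3 rose by 0.66, and Psma3, Psmc2, Psmc6, Psmd6 and Psmd10 fell by 0.52 to 0.55 (7.3 and 7.81%). With WT mice 1 and 4 left out the WT steps gave 39 higher and 1 lower from 2h to 6h (26.2 and 25.1% over all genes), 12 higher from 6h to 12h (9.7 and 10.9%), and 4 higher and 11 lower from 12h to 24h (21.1 and 15.3%).

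**Figure D1:**
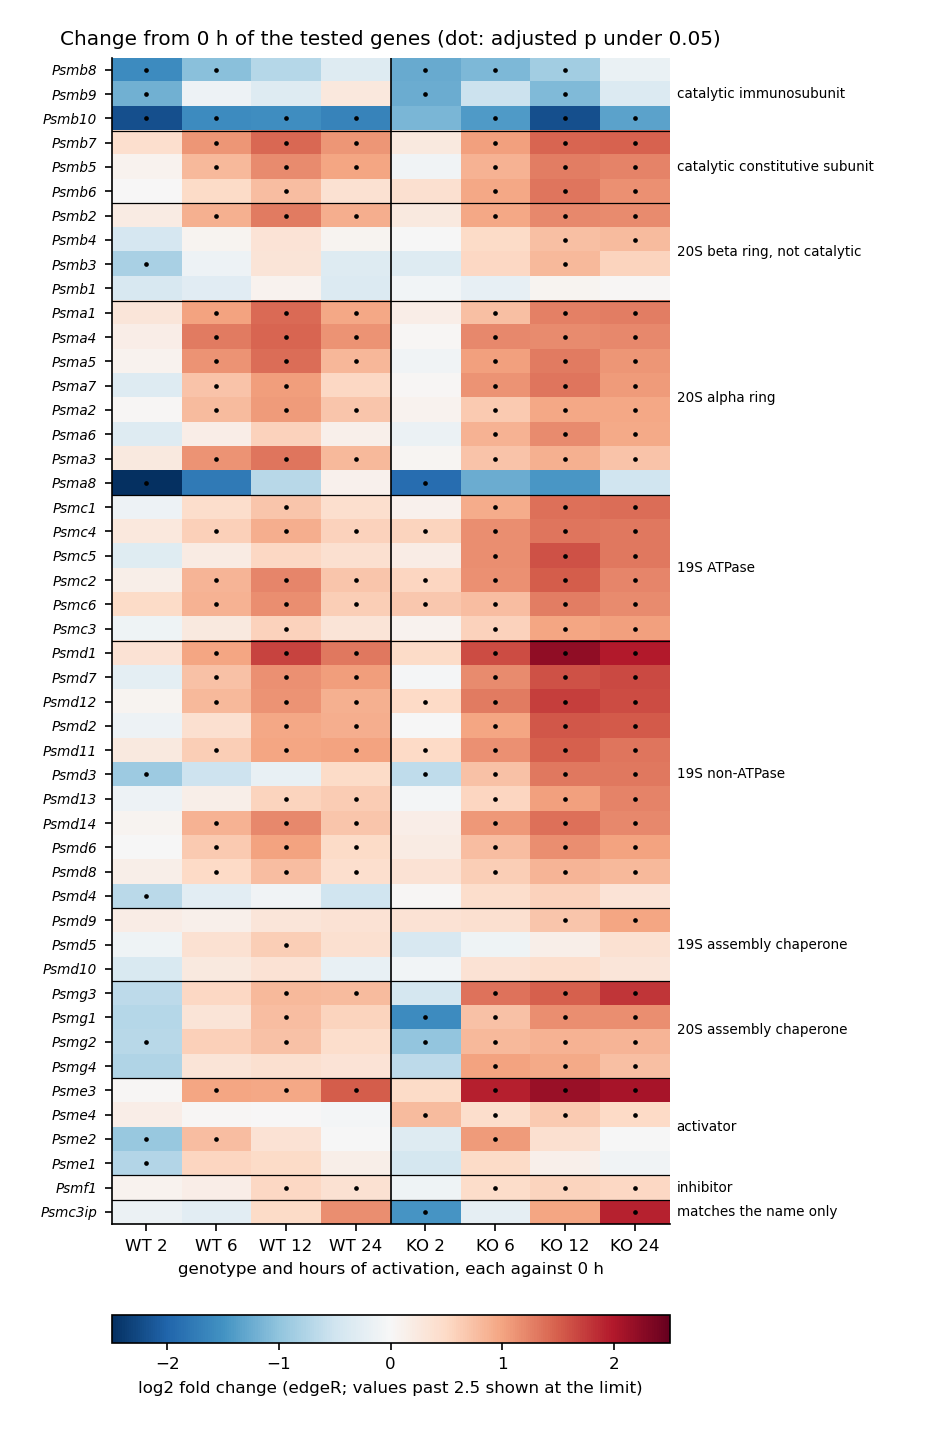
Log2 change from 0h of each tested gene (rows, by role) at 2, 6, 12 and 24h in WT and KO (columns). Colour gives the change, limited to 2.5 in either direction, and a dot marks an adjusted p under 0.05. In KO 28 of the 31 standard 26S subunits are higher with a dot at 24h; of the immunosubunit rows at the top, all 3 are lower with a dot at 12h and Psmb10 at 24h.

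At 2h Psmb8 and Psmb9 fell in both genotypes. Psmb10 was called lower in WT, a call lost without WT mouse 3. It was not called in KO, although every KO library at 2h lay below every naive KO library. Psmb8 (LMP7, the counterpart of Psmb5) stood in KO mice 1 to 5 at 396, 432, 539.8, 436 and 465 CPM at 0h. At 2h it was at 183, 195, 184, 156 and 230.4 CPM. By 24h it was at 354, 442, 419, 403 and 417 CPM. Every KO library at 2h lay below every KO library at 0h, whereas the ranges at 0h and 24h overlapped. Psmb8 fell in KO by 1.26 on the log2 scale at 2h (SE 0.339, adjusted p = 0.00265) and by 1.12 at 6h (SE 0.338, adjusted p = 0.00554). At 12h it fell by 0.87 (SE 0.336, adjusted p = 0.0276), a call that was lost when any 1 KO mouse was left out (-0.82 to -0.90). At 24h the change was -0.16 (SE 0.334, adjusted p = 0.7). In KO the highest naive values of Psmb8 and Psmb9 came from mouse 3, whose B cell marker sum was also the highest at 360.1 CPM. Without that mouse Psmb8 fell by 1.18 at 2h and Psmb9 by 1.13. The part of other cells in these falls was not tested.

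Psmb9 (LMP2, the counterpart of Psmb6) started in KO at 219, 215, 289, 207 and 199 CPM. It was at 106, 86.5, 95.8, 86.0 and 105 CPM at 2h, at 148, 144, 155, 146 and 185 at 6h, and at 94.4, 118, 108, 111 and 91.2 at 12h. At 24h it was at 154, 196, 183, 178 and 174 CPM. The course thus had low points at 2h and 12h, each with all 5 libraries below all 5 at 6h and at 24h. Against 0h, Psmb9 fell by 1.23 at 2h (SE 0.236, adjusted p = 4.59e-05) and by 1.11 at 12h (SE 0.235, adjusted p = 0.000125), and was -0.54 at 6h (adjusted p = 0.0526) and -0.35 at 24h (adjusted p = 0.192). The step from 2h to 6h was 0.70 in KO (SE 0.233, adjusted p = 0.0131) and 1.07 in WT (SE 0.235, adjusted p = 0.000454), and that from 12h to 24h in KO was 0.76 (SE 0.233, adjusted p = 0.0314). The KO step to 6h lost its call without KO mouse 2, 4 or 5 (0.67 to 0.68), and the step to 24h without any 1 KO mouse (0.72 to 0.79). Psmb9 shares 212 of its 3660 exon bases with the peptide transporter gene Tap1, and how strand was used in counting is not given in the sources used here. Other catalytic genes overlap as well: Psmb8 shares 498 of 3381 bases with Gm20496, Psmb7 405 of 3421 with Nek6 and Psmb5 109 of 899 with Mir686. Mir686 lies on the same strand as Psmb5, and the others lie on opposite strands.

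Psmb10 (MECL-1, the counterpart of Psmb7) had the largest fall of the 3 in KO. It stood at 185, 203, 325, 226 and 223 CPM at 0h, at 103, 100.2, 102, 90.4 and 132 at 2h, at 50.0, 44.2, 50.0, 47.4 and 60.5 at 12h, and at 79.5, 96.8, 102, 87.6 and 93.2 at 24h. All 5 values at 12h lay below those at every other time shown. Psmb10 fell by 2.21 at 12h (SE 0.557, adjusted p = 0.000988). It fell by 1.42 at 6h (SE 0.543, adjusted p = 0.0277) and by 1.34 at 24h (SE 0.542, adjusted p = 0.0314), and was -1.14 at 2h (adjusted p = 0.0882). The 6h call was lost without KO mouse 1, 2, 3 or 4 (-1.21 to -1.52) and the 24h call without any 1 KO mouse (-1.22 to -1.39). The fit shares 1 estimate of spread per gene between the genotypes, and Psmb10 stood at 1519 CPM in the naive library of WT mouse 3 against 96.8 to 169 in the other WT mice.

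In WT the immunosubunits differed widely between mice. Psmb8 stood at 296, 379, 1633, 292 and 366 CPM at 0h and at 258, 154, 227, 203 and 153 at 2h. At 12h it stood at 570.0, 234, 216, 565 and 221 CPM. Mice 1 and 4 were thus the highest at 12h, with mice 2, 3 and 5 within the range of 216 to 234. Psmb10 showed the same split, at 278 and 279 CPM in mice 1 and 4 at 12h and at 50.6, 37.9 and 50.0 in mice 2, 3 and 5. Psmb8 fell in WT by 1.58 at 2h (SE 0.342, adjusted p = 0.00042) and by 1.05 at 6h (adjusted p = 0.0112), and Psmb9 fell by 1.19 at 2h (SE 0.236, adjusted p = 0.000134). Psmb10 fell by 2.20 at 2h (SE 0.556, adjusted p = 0.0022) and stood at -1.57, -1.56 and -1.67 at 6, 12 and 24h, all called. Without WT mouse 3 the Psmb10 values were -0.65, 0.21, 0.26 and 0.02 and Psmb8 at 6h was -0.09, none of them called. Without WT mice 1 and 4 and the naive library of mouse 3, Psmb10 fell by 0.95, 1.46, 1.90 and 0.89, all called, Psmb8 fell by 1.09, 1.17 and 0.78 at 2, 6 and 12h, and Psmb9 fell by 1.13 at 2h and 0.69 at 12h.

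**Figure D2:**
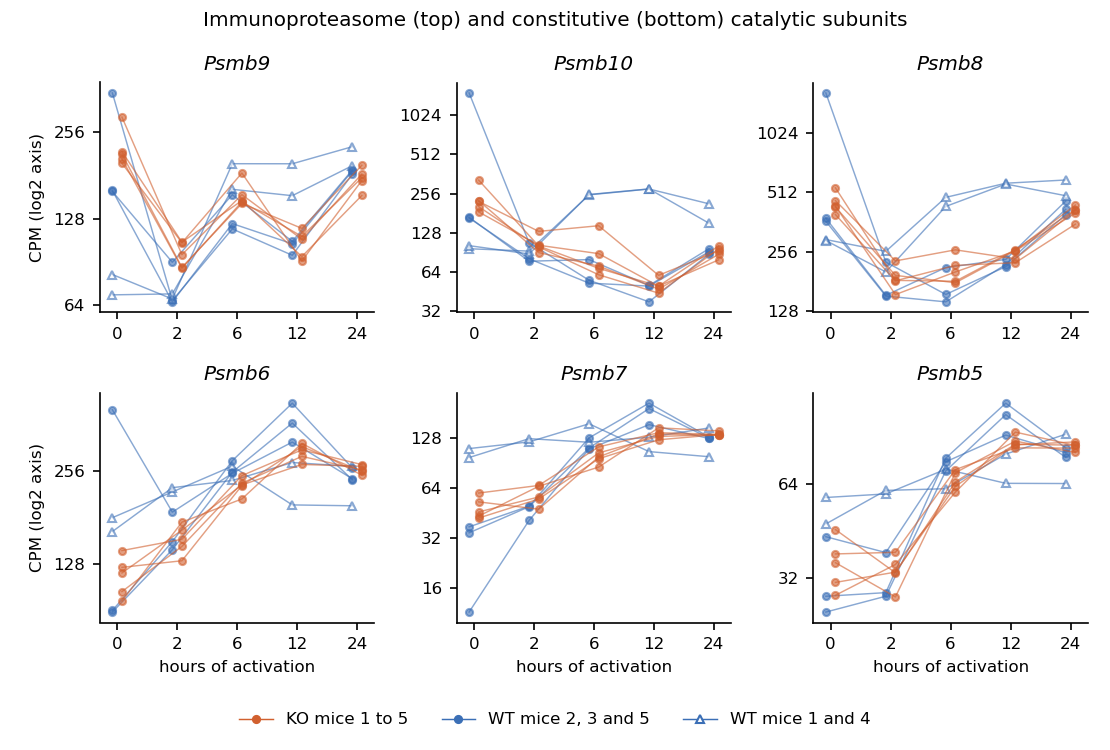
CPM on a log2 axis of the 3 immunosubunits and their constitutive counterparts at 0, 2, 6, 12 and 24h, evenly spaced. Each point is a library and lines join the libraries of a mouse; orange circles are KO mice, blue circles WT mice 2, 3 and 5, and open triangles WT mice 1 and 4. Psmb10 in KO lies between 185 and 325 CPM at 0h and between 44.2 and 60.5 at 12h.

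The constitutive catalytic subunits rose over the same hours. Psmb5, which carries the chymotrypsin-like site, stood in KO at 28.2, 31.0, 45.8, 35.9 and 38.3 CPM at 0h and at 93.8, 85.4, 85.8, 87.8 and 83.5 at 12h. The groups did not overlap. In KO it rose by 0.88 at 6h (SE 0.185, adjusted p = 0.000129), 1.28 at 12h (SE 0.186, adjusted p = 3.41e-07) and 1.23 at 24h (SE 0.186, adjusted p = 5.83e-07). Psmb6, which carries the caspase-like site, went from 97.4, 105, 142, 125 and 120.1 CPM to 315, 286, 300.5, 308 and 269 at 12h, a rise of 1.33 (SE 0.224, adjusted p = 4.62e-06). Psmb7, which carries the trypsin-like site, went from 43.4, 42.3, 46.0, 52.8 and 59.7 CPM to 147, 124, 130.3, 135 and 137, a rise of 1.46 (SE 0.31, adjusted p = 0.000129). For all 3 genes every KO library at 12h lay above every one at 0h.

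In WT, Psmb5 rose by 1.18 at 12h (SE 0.186, adjusted p = 2.99e-06), Psmb7 by 1.43 (SE 0.31, adjusted p = 0.000285) and Psmb6 by 0.77 (SE 0.222, adjusted p = 0.00506). The call for Psmb6 was lost without WT mouse 2 (0.52) or WT mouse 5 (0.45). Its naive WT values were 181, 89.8, 405, 163 and 90.8 CPM, with mouse 3 far above the others. Without WT mice 1 and 4 and the naive library of mouse 3 the rises at 12h were 1.94 for Psmb5, 1.99 for Psmb6 and 2.31 for Psmb7. Psmb7 went the other way in the naive library of mouse 3, at 11.6 CPM against 34.5 to 110.2 in the other WT mice.

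The ratio of an immunosubunit to its counterpart within a library does not depend on library size. The Psmb8 to Psmb5 count ratio in KO was 14.0, 13.9, 11.8, 12.2 and 12.2 at 0h, 5.16, 5.81, 5.51, 5.58 and 5.95 at 2h, and 2.41, 3.04, 3.06, 2.95 and 2.83 at 12h. At 24h it was 4.16, 5.06, 4.92, 4.99 and 5.00. The 5 KO mice moved together, with no overlap between any of these times. The Psmb9 to Psmb6 ratio in KO was 2.25, 2.05, 2.04, 1.65 and 1.66 at 0h and 0.299, 0.413, 0.361, 0.36 and 0.338 at 12h. The Psmb10 to Psmb7 ratio went from 4.27, 4.81, 7.06, 4.29 and 3.74 to 0.341, 0.355, 0.384, 0.351 and 0.441, so that the constitutive partner had the higher count in all 5 libraries at 12h. In WT mice 2 and 5 it went from 4.89 and 4.45 to 0.264 and 0.243, and in mice 1 and 4 from 0.878 and 1.05 to 2.63 and 2.16. In WT mouse 3, whose naive library stood apart, it went from 131 to 0.247.

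All 12 tests of the change of these ratios from 0h, over the 10 mice, passed the threshold in the direction of a fall (exact two-sided sign-flip permutation test, smallest possible p 0.001953, Benjamini-Hochberg over 12 tests). At 2h the mean log2 change was -1.25 for Psmb8 to Psmb5, -1.40 for Psmb9 to Psmb6 and -1.64 for Psmb10 to Psmb7, each with a fall in 10 of 10 mice (exact permutation adjusted p = 0.0078). At 12h it was -1.94, -1.76 and -3.31, with a fall in 8 of 10 mice each (exact permutation adjusted p = 0.0117). At 24h it was -1.20 in 9 of 10 mice (exact permutation adjusted p = 0.0117), -0.80 in 8 of 10 (exact permutation adjusted p = 0.0488) and -2.56 in 9 of 10 (exact permutation adjusted p = 0.0117). The Psmb9 to Psmb6 result at 24h was lost when any 1 mouse other than WT mouse 1 or 4 was left out (-0.68 to -0.87). Over the 8 mice without WT mice 1 and 4 all 12 changes were falls past the threshold, of 1.27 to 4.47 (exact permutation adjusted p = 0.0078 in each, the smallest 8 mice can give). These 8 mice include WT mouse 3, whose naive library stood apart and enters the largest value, that of Psmb10 to Psmb7 at 12h. With 1 of the 10 mice left out at a time, the 12h mean of that pair ran from -3.86 to -2.68. None of the 15 comparisons of KO with WT mice passed (exact permutation test, smallest adjusted p = 0.238). Nor did any of the 12 comparisons of their changes (exact permutation test, smallest adjusted p = 0.19). An unadjusted permutation p under 0.007937 cannot arise from 5 mice of each genotype. A lone comparison at that floor would still fail after adjustment over 15 or 12 tests. Whether the genotypes differ in these ratios is therefore not decided here.

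**Figure D3:**
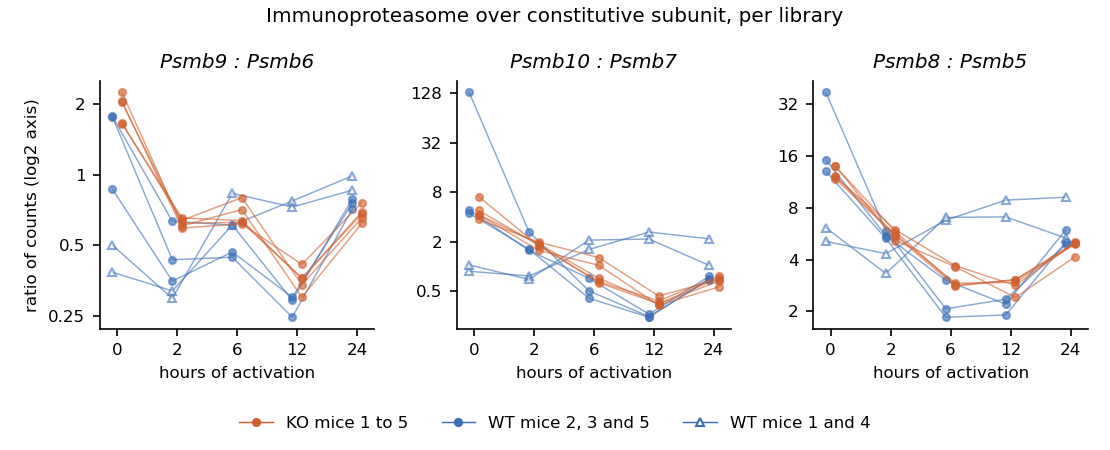
Count ratio on a log2 axis of each immunosubunit to its constitutive counterpart by time, 1 point per library, joined within a mouse, with symbols by genotype and with open triangles for WT mice 1 and 4. At 12h the Psmb10 to Psmb7 ratio lies between 0.341 and 0.441 in KO and at 2.63 and 2.16 in WT mice 1 and 4.

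Per kilobase of the principal transcript, the order of the 6 catalytic genes in KO changed between times. At 0h Psmb8 was at 279 ± 33.2 CPM per kb (SD, n = 5), followed by Psmb10 (178 ± 41.3), Psmb9 (167 ± 26.7) and Psmb6 (148 ± 22.0), with Psmb7 (42.1 ± 6.31) and Psmb5 (39.9 ± 7.57) last. Psmb10, Psmb9 and Psmb6 lay within their spread of each other, as did Psmb7 and Psmb5. At 12h Psmb6 was first at 371 ± 22.8 CPM per kb, then Psmb8 (153 ± 10.2), Psmb7 (116 ± 7.15), Psmb5 (97.1 ± 4.38), Psmb9 (77.4 ± 8.50) and Psmb10 (38.5 ± 4.67). At 24h Psmb6 (325 ± 10.1) and Psmb8 (249.8 ± 20.2) led, Psmb9 (131 ± 11.4) and Psmb7 (116 ± 2.88) had overlapping ranges, Psmb5 (93.8 ± 2.71) followed, and Psmb10 was last (70.0 ± 6.52).

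Summed over genes, the 31 standard 26S subunits (the alpha ring without Psma8, the constitutive beta subunits, and the cap without its chaperones) went in KO from 3011 to 4344 CPM at 0h to 8142 to 8836 at 12h and 7789 to 8047 at 24h. The 3 constitutive catalytic subunits went from 169 to 234 CPM to 490.2 to 556 and 469 to 488. The 3 immunosubunits went from 800.2 to 1154 CPM at 0h to 332 to 467 at 2h, 370.0 to 422 at 12h and 587 to 735 at 24h. No KO library at a later time reached the lowest naive sum of the immunosubunits. In WT at 12h that sum was 1002 and 1042 CPM in mice 1 and 4 and 349 to 392 in the others.

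The alpha ring, which gates entry to the core, rose as a group. In KO 7 of its 8 genes were higher at 6, 12 and 24h; the eighth, Psma8, is the testis form and stayed at or below 0.998 CPM. In WT 6, 6 and 5 were higher, and 7 at each of these times without WT mice 1 and 4 and the naive library of mouse 3. Psma1 stood in KO at 109, 97.8, 147, 113 and 133 CPM at 0h and at 296, 299.8, 279.9, 284 and 297 at 24h, a rise of 1.28 (SE 0.215, adjusted p = 3.54e-06). All 24h libraries lay above all naive ones. Psma4 rose by 1.20 and Psma3 by 0.70 at 24h. Psma8 fell by 1.91 in KO at 2h (adjusted p = 0.0403), at a level of very few counts, and the call was lost without KO mouse 1, 2, 4 or 5.

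The noncatalytic beta subunits differed among themselves. At 24h in KO, Psmb2 rose by 1.19 (SE 0.19, adjusted p = 1.63e-06) and Psmb4 by 0.79 (adjusted p = 0.00913), while Psmb3 was at 0.56 (adjusted p = 0.107) and Psmb1 at 0.02 (SE 0.235, adjusted p = 0.941). Psmb1 stood in KO at 206, 203, 344, 203 and 208 CPM at 0h and at 239.9, 235, 232, 229 and 246 at 24h. The naive values lay below those at 24h in all mice but mouse 3. The sign of its change was negative under other scalings (-0.14 with library totals, -0.10 with RLE size factors).

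All 6 ATPases of the cap, which unfold the substrate, were higher in KO at 6, 12 and 24h, and 3 of them already at 2h. In WT 3, 5 and 3 were higher at 6, 12 and 24h, and all 6 at each time without the same libraries. Psmc4 went in KO from 101, 114, 159.6, 140.4 and 140.0 CPM at 0h to 191, 200.5, 199, 174 and 204 at 2h and 319, 329, 317, 335 and 335 at 24h, with no overlap between these times. At 24h its rise was 1.32 (SE 0.203, adjusted p = 8.42e-07). Psmc1 (1.40), Psmc5 (1.32), Psmc6 (1.18) and Psmc3 (1.03) rose by like amounts. In WT at 24h Psmc4 rose by 0.57 (SE 0.201, adjusted p = 0.0188) and Psmc1 was at 0.42 (adjusted p = 0.16); without the same libraries they were at 1.53 and 1.62, both called.

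Of the 11 non-ATPase cap subunits, 10 were higher in KO at 6, 12 and 24h, and 7, 9 and 9 in WT (10, 11 and 11 without the same libraries). The exception at 24h was Psmd4, a ubiquitin receptor, at 0.34 (SE 0.258, adjusted p = 0.256). Psmd1, the large scaffold subunit, had the largest change. It went in KO from 91.7, 92.2, 91.0, 121 and 128 CPM at 0h to 509, 483, 489, 469 and 481 at 12h, a rise of 2.21 (SE 0.277, adjusted p = 2.49e-08), and stood at 1.97 at 24h. Psmd7, the partner of the deubiquitinase Psmd14, rose by 1.66 at 24h (SE 0.221, adjusted p = 6.35e-08) and Psmd8 by 0.82. WT mice 1 and 4 were the highest WT mice for Psmd1 at 0h, at 271 and 233 CPM against 93.2, 78.1 and 95.4, and the lowest at 12h, at 279 and 370.2 against 614, 554 and 658.

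**Figure D4:**
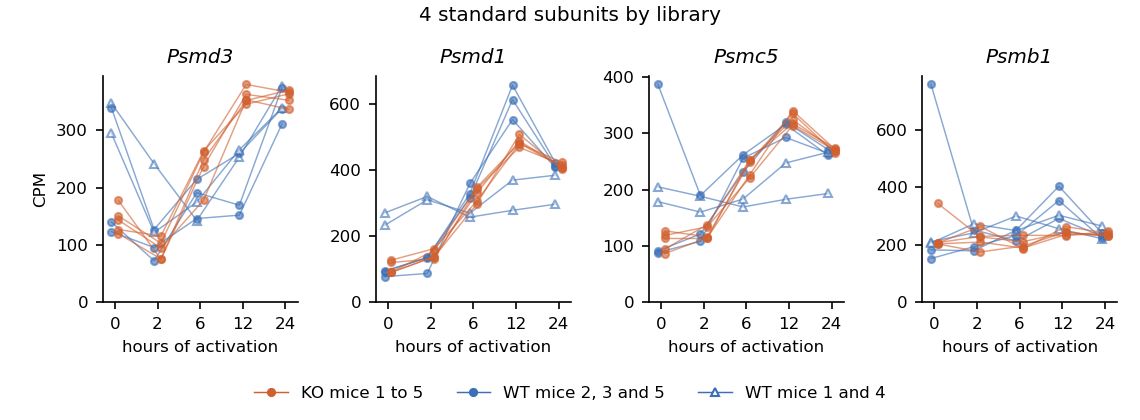
CPM on a linear axis from 0 of Psmd3, Psmd1, Psmc5 and Psmb1 by time, 1 point per library joined within a mouse (orange KO, blue WT mice 2, 3 and 5, open triangles WT mice 1 and 4). Psmd1 in KO goes from 91.0 to 128 CPM at 0h to 469 to 509 at 12h, and Psmb1 shows no such course.

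Among the core chaperones Psmg1 and Psmg2 fell before they rose. Psmg1, which with Psmg2 builds the alpha ring, stood in KO at 24.3, 24.5, 40.1, 33.1 and 30.2 CPM at 0h, at 9.59, 10.2, 9.42, 8.72 and 13.1 at 2h, and at 64.6, 72.4, 73.6, 65.7 and 65.7 at 24h. The 3 times did not overlap. It fell by 1.58 at 2h (SE 0.315, adjusted p = 8.61e-05), rose by 2.31 from 2h to 6h (SE 0.321, adjusted p = 1.74e-07) and stood 1.17 above 0h at 24h (SE 0.309, adjusted p = 0.00138). Psmg2 fell by 0.99 at 2h (SE 0.263, adjusted p = 0.00234) and rose by 1.81 from 2h to 6h (SE 0.268, adjusted p = 5.65e-07). Psmg3 and Psmg4, the second chaperone pair, stood at -0.43 (adjusted p = 0.217) and -0.66 (adjusted p = 0.0776) at 2h, and were higher at 24h, by 1.79 (SE 0.281, adjusted p = 1.14e-06) and 0.74 (adjusted p = 0.0317, lost without KO mouse 1, 2, 4 or 5 at 0.63 to 0.69). All 4 were higher in KO at 6, 12 and 24h, and 0, 3 and 1 of them in WT (4 at each time without WT mice 1 and 4 and the naive library of mouse 3). Of the 3 cap chaperones Psmd5, Psmd9 and Psmd10, Psmd9 rose in KO at 24h by 1.00 (SE 0.19, adjusted p = 2.64e-05). Psmd9 shares 1849 of its 7248 exon bases with the noncoding gene Gm26745.

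The activators followed different courses. Psme1 in KO was at 347, 396, 562, 414 and 406 CPM at 0h, 551, 600.5, 578, 621 and 606 at 6h, and 359, 429.8, 399, 389 and 411 at 24h, so its peak at 6h overlapped the naive range through mouse 3. No change from 0h was called in KO, while the step from 2h to 6h was 0.92 (SE 0.261, adjusted p = 0.00363) in KO and 1.27 (SE 0.263, adjusted p = 0.000237) in WT. Its partner Psme2 stood in KO at 114, 103, 108, 91.7 and 126 CPM at 2h, at 252, 285, 283, 289.6 and 302 at 6h, and at 123, 146, 139, 122 and 143 at 24h. Psme2 at 6h lay above all of these, 1.06 higher than at 0h (SE 0.31, adjusted p = 0.00435) and 1.38 higher than at 2h (SE 0.313, adjusted p = 0.000351). In WT at 2h Psme1 fell by 0.72 (adjusted p = 0.0299) and Psme2 by 0.95 (adjusted p = 0.0169), calls lost without WT mouse 3 (-0.18 and -0.21).

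Psme3 rose and stayed high. In KO it went from 153, 183, 163, 192 and 205 CPM at 0h to 794, 789, 805, 799 and 794 at 12h, with a rise of 1.94 at 6h (SE 0.247, adjusted p = 3.13e-08), 2.15 at 12h (SE 0.248, adjusted p = 5.09e-09) and 2.06 at 24h (SE 0.248, adjusted p = 8.87e-09). The 5 libraries at 12h lay between 789 and 805 CPM, far above the naive ones. In WT the rise at 24h was 1.52 (SE 0.244, adjusted p = 3.75e-06), and 2.00 without WT mice 1 and 4 and the naive library of mouse 3. Psme4 was already raised in KO at 2h, from 106, 119, 75.1, 117 and 113 CPM to 179, 216, 173, 184 and 166, without overlap, a rise of 0.79 (SE 0.122, adjusted p = 1.34e-06), and it stood at 0.50 at 24h (SE 0.121, adjusted p = 0.000565). In WT, with all mice, no change of Psme4 from 0h was called. WT mice 1 to 5 stood at 196, 128, 152, 180.4 and 133 CPM at 0h and at 183, 172, 172, 162 and 201 at 2h. The difference between the genotypes in the change to 2h was not called. Psmf1, the inhibitor of the 20S core, rose in KO by 0.53 at 24h (SE 0.116, adjusted p = 0.000177).

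**Figure D5:**
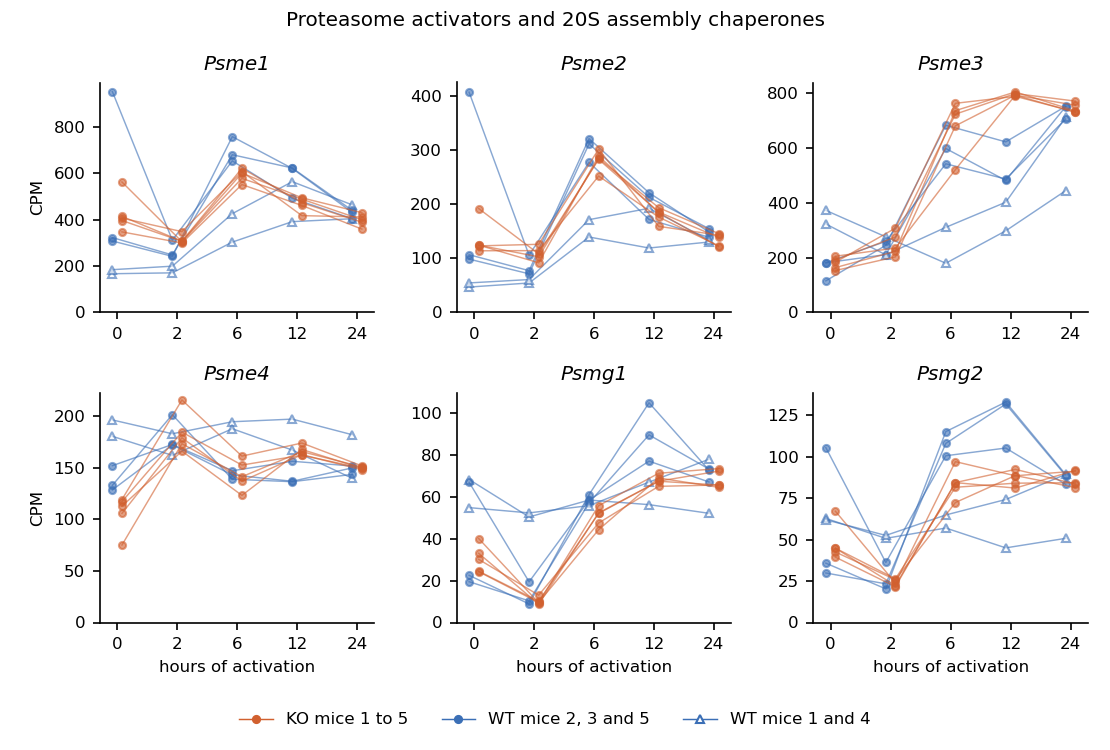
CPM on a linear axis from 0 of activators and chaperones by time, 1 point per library joined within a mouse, symbols by genotype with open triangles for WT mice 1 and 4. Psme2 in KO peaks at 6h (252 to 302 CPM), Psme3 stays high from 6h and Psmg1 dips at 2h (8.72 to 13.1 CPM).

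Between the genotypes few genes were called, and most calls depended on the WT libraries that stood apart. At 0h no gene was higher in KO and 8 were lower (2.34% higher and 5.59% lower over all genes), namely Psma6, Psmc1, Psmc4, Psmc5, Psmd3, Psmd4, Psmd12 and Psme4. The largest was Psmc1 at -0.87 and the smallest Psme4 at -0.58 (SE 0.122, adjusted p = 0.0043). Psme4 stood at 75.1 to 119 CPM in KO and at 196, 128, 152, 180.4 and 133 in WT, with no overlap. It was the 1 of 48 genes with every KO library below every WT library at 0h, against 1.56% of all genes. A fit without WT mice 1 and 4 gave 4 genes higher and 11 lower in KO (8.9 and 13.5% over all genes), and with the naive libraries fitted alone none was called. Without the naive library of WT mouse 3 as well, the other 7 genes turned to between 0.10 and 0.37, Psme4 stood at -0.32 (adjusted p = 0.0491), and 16 genes were higher and 1 lower (7.17 and 9.34% over all genes). Leaving out WT mouse 2 gave 25 lower genes and leaving out WT mouse 5 gave 24. Leaving out WT mouse 1 gave 3 lower, and leaving out WT mouse 3 gave 3 higher and 3 lower. Leaving out WT mouse 4 or KO mouse 1, 2, 4 or 5 gave 1 lower. The shares over all genes in these fits are not given here, so the counts cannot be set against them.

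At 2h 1 gene was higher in KO and 2 were lower (2.9 and 8.9% over all genes). Psmg1 was lower by 1.47 (SE 0.314, adjusted p = 0.0045), with WT mice 1 and 4 at 50.5 and 52.4 CPM and the other WT mice at 10.3, 19.4 and 8.87. Leaving out mice 1 and 4, its difference was -0.32 and not called. Psmc3ip was at -2.01 (adjusted p = 0.0224), and at 0.37 without these mice. Psma8 was the gene called higher, at 2.99 (SE 0.988, adjusted p = 0.042) and with few counts, and its call was lost without mice 1 and 4 (2.98). No gene was called by edgeR at 6h (2.53 and 7.59% over all genes) or at 24h (0.00752 and 0.0376%). At an unadjusted p under 0.05, 3 were higher and 4 lower at 6h and none at 24h, and the counts by DESeq2 were 1 lower and 0, in that order. Shares over all genes for these counts are not given here.

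At 12h 2 genes were higher in KO and none lower (5.54 and 7.55% over all genes). Psme3 stood at 298, 482, 623, 402 and 487 CPM in WT and at 789 to 805 in KO, without overlap, 0.80 higher in KO (SE 0.24, adjusted p = 0.0253). Psmd3, a cap subunit, stood at 352, 346, 363, 380.4 and 354 CPM in KO and at 254, 169.6, 260.1, 266 and 152 in WT, also without overlap, 0.70 higher (SE 0.229, adjusted p = 0.0367). These were the 2 of 48 genes with every KO library above every WT library at 12h. Over all genes the share was 13%, so the set lay below it. Neither call held when any 1 KO mouse or WT mouse 4 was left out (0.79 to 0.80 for Psme3, 0.68 to 0.81 for Psmd3), and that of Psmd3 was also lost without WT mouse 2 (0.62) or 5 (0.60). Both were called without WT mice 1 and 4, at 0.62 for Psme3 and 0.92 for Psmd3, and 8 other genes were lower in KO (13.9 and 9.03% over all genes). In a fit of the 12h libraries alone without these mice, KO was higher for 4 genes and lower for 30 (27.0 and 26.4% over all genes). KO libraries lay below all of WT mice 2, 3 and 5 for 31 of the 48 genes at 12h (25.2% of all genes) and for 19 at 6h (13.4%). With all mice this held for 1 gene at 12h (11.4%) and 6 at 6h (5.51%). By 24h Psmd3 stood at 371, 364, 353, 367 and 337 CPM in KO and 378, 375, 338, 339 and 311 in WT, overlapping.

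The change from 0h itself differed between genotypes for no gene at 2h or 24h (0.015 and 0.0752% of all genes in either direction), for 1 gene at 6h and for 4 at 12h by edgeR, all with a larger value in KO (2.09 and 5.54% over all genes, with 0.376 and 1.96% smaller in KO). At an unadjusted p under 0.05 there was 1 gene at 2h and 18 at 24h, all larger in KO, and DESeq2 called 0 at both. Shares over all genes at that unadjusted threshold are not given here, so these counts cannot be set against them. Nor is it given how many of the 18 hold without the WT libraries that stood apart. Psmd3 was at 1.24 at 6h (SE 0.324, adjusted p = 0.0301) and at 1.49 at 12h (SE 0.324, adjusted p = 0.00287). The 12h value was still called without WT mice 1 and 4 (1.40) and without the naive library of mouse 3 as well (0.79). It was also called in each fit that left out 1 mouse. The 6h value was not called without WT mice 1 and 4 (0.83), without that library as well (0.26), or without KO mouse 1, 2, 3 or 4 or WT mouse 1 or 4 (1.03 to 1.33). The other genes at 12h were Psme3 (1.18, SE 0.338, adjusted p = 0.0225), Psmc5 (1.08, SE 0.314, adjusted p = 0.0256) and Psme4 (0.64, SE 0.171, adjusted p = 0.0142). The call of Psme3 was lost without KO mouse 1, 2, 3 or 4 or WT mouse 4 (1.02 to 1.21), that of Psmc5 without any 1 KO mouse or WT mouse 1 or 4 (0.95 to 1.14), and that of Psme4 without KO mouse 3 (0.55), and all 3 were lost with library totals. Psme3 was at 0.45 without WT mice 1 and 4 and not called, and without the naive library of mouse 3 as well Psmc5 was at -0.16. Without WT mice 1 and 4 alone, 3 genes had a larger change in KO at 12h and 8 a smaller one (13.3 and 7.26% over all genes). With the naive library of mouse 3 also left out, 35 genes had a smaller change in KO at 12h and 3 a larger one (13.6 and 15.6% over all genes), and 27 a smaller one at 6h (6.69%). Naive WT cells were mice 2 and 5 alone in that fit.

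Genes outside the set were read from 5 lists: proteasome partners, class I antigen processing, interferon signalling, S phase and mitosis. Of 23 partners that assemble the proteasome, deliver substrates to it or control its genes, 15 had risen and 3 had fallen in KO by 24h, against 30.7 and 28% of all genes (median 0.68). Nploc4, a cofactor of the segregase VCP, rose by 1.41 (SE 0.143, adjusted p = 2.95e-10), and the shuttle factors Rad23b and Ubqln4 by 1.55 and 1.14, while Fbxo7, which binds the inhibitor Psmf1, fell by 0.72. Of 12 class I antigen processing genes, 4 were higher and 5 lower at 24h, where 30.7% of all genes were higher and 28% lower (median -0.40). The folding factors Canx, Calr and Pdia3 rose by 0.90, 0.80 and 0.73, and B2m, the light chain of class I molecules, fell by 1.37 (SE 0.381, adjusted p = 0.00219).

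Among 16 interferon signalling genes in KO at 24h, 3 had risen and 10 had fallen, against 30.7 and 28% of all genes (median -0.80). Ifng, which encodes interferon gamma, rose by 7.77 and Irf8 by 5.38, while Irf7 fell by 5.65 and Irf9 by 1.96. At 2h, when the immunosubunits were low, 8 of these genes were higher and 3 lower, against 20.3 and 19.6% of all genes. All 15 S phase genes were higher at 24h (median 2.55, with Mcm3 at 2.67 and Pcna at 2.11) and 7 at 12h. Of 15 mitosis genes 11 were higher at 24h (median 2.86, with Aurkb at 3.65 and Cdk1 at 3.31) and none at 6h or 12h. Over all genes 26.8, 27.8 and 30.7% were higher at 6, 12 and 24h. Any link between these lists and the proteasome genes was not tested.

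Markers of other cells moved over the same hours. From 0h to 2h the B cell marker sum in KO went from 75.0 to 360.1 CPM to 50.7 to 265, and the dendritic cell sum (9 markers) from 59.8 to 258 to 79.6 to 264. By 12h they were at 22.9 to 51.6 and 31.8 to 75.3 CPM, and by 24h at 14.0 to 24.9 and 37.9 to 47.4. The sum of 8 mature CD8 T cell markers in KO was 5796 to 8373 CPM in naive cells and 1887 to 2069 after 24h. In naive WT cells it was 1891 to 16252 CPM, and 8058 to 16252 without WT mice 1 and 4. From 0h to 24h in KO the macrophage and monocyte sum (9 markers) went from 20.1 to 47.0 CPM to 8.44 to 16.2, the neutrophil sum (7) from 72.2 to 165 to 0.125 to 0.565, and the erythroid and platelet sum (9) from 29.5 to 91.7 to 0.958 to 1.35. The NK cell sum (6) was 65.4 to 217 CPM in KO and 2.43 to 69.1 in WT at 0h, and 152 to 246 in KO at 24h. Of the markers listed, Siglech, Klra8, Rag1 and Rag2 were at 0 in all KO libraries at 24h. Their part in the changes of the immunosubunits was not tested.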

How the data were processed

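Counts per gene were deposited by the authors as 1 table with raw counts for all 50 libraries. Per the labels' protocols, libraries were made with a stranded mRNA kit and read as 50-base single ends. Per the submitters' processing notes, CASAVA 1.8.2, STAR 2.4 and featureCounts 1.4.6 were used with GRCm38; the strand setting, the annotation release and the treatment of reads with several matches are not given in the sources used here. Samples were grouped by the genotype and hour in the labels, 5 mice a group; nothing beyond the label of independent replicates says how mice were housed or processed.

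Symbols came from GENCODE M21 (21583 of 21647 identifiers matched). Counts were scaled by TMM and tested in edgeR 4.0.16 (R 4.3.3) with the robust quasi-likelihood test, 1 mean for each of the 10 groups, over the 13294 genes that passed filterByExpr (minimum count 10, minimum total 15), with Benjamini-Hochberg adjustment and a threshold of 0.05. The common dispersion was 0.214 with 40 residual degrees of freedom. CPM uses the TMM-scaled totals. Ratios of counts within a library were taken with a pseudocount of 0.5. The procedure was tested on simulated data. Alternatives were RLE scaling, library totals, no filter, DESeq2 1.42.0, the mouse as a block, the compared groups alone, and leaving out mice; limma 3.58.1 was loaded with edgeR.

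The labels say that a mouse number marks 1 animal across times within a genotype. Libraries of 1 mouse deviated from their group means together, with mean correlations of 0.415 to 0.638 in WT and 0.212 to 0.356 in KO. No mice pair across genotypes.

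The members and lists were chosen with earlier results of these data known. Genes named in the text were all catalytic subunits, activators, the inhibitor and core chaperones, the 2 largest and 2 smallest changes at 24h in KO of each structural group, any member called between genotypes, and up to 4 of each pathway list by p at 24h in KO. Psma6, Psmd9, genes called in a single step and marker genes named beyond this were chosen after their values were seen. The targeted gene and a check of the genotype labels are not reported here.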

Additional observations from a re-analysis of the deposited data

Results flagged for a closer look

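Of 90 groups of 5 libraries checked, 8 had a library apart from the others by Dixon's criterion; chance gives about 1 in 20 groups. The naive library of WT mouse 3 had Psmb8 at 1633 CPM and Psmb10 at 1519 CPM, where the other WT mice lay at 292 to 379 and at 96.8 to 169. Psmb9 stood apart in KO mouse 3 at 0h (289 CPM), in KO mouse 5 at 6h (185 CPM), in WT mouse 2 at 2h (90.1 CPM) and in WT mouse 4 at 24h (228 CPM). KO mouse 1 at 24h had the highest Psmb7 (141 CPM) and the lowest log2 ratio of Psmb8 to Psmb5 (2.06) of its group.

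The change from 0h differed between genotypes by a direct test for Psmd3 at 6h (1.24) and, at 12h, for Psmd3 (1.49), Psme3 (1.18), Psmc5 (1.08) and Psme4 (0.64), each larger in KO. The 6h value of Psmd3 and the 12h values of Psme3, Psmc5 and Psme4 each lost the threshold when some single mouse was left out or with library totals, and Psmc5 was at -0.16 without WT mice 1 and 4 and the naive library of WT mouse 3. The 12h value of Psmd3 kept its call in these fits.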

How the results depend on the processing

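With the mouse as a replicate block, 36, 38 and 38 members were higher in KO at 6, 12 and 24h, and the block changed no count by more than 1.5 times. Counts called in either direction that moved were as follows, listed without the share over all genes in each fit. With the compared groups alone, WT at 2, 6, 12 and 24h gave 0, 3, 11 and 8, KO at 2h 21, KO against WT 0 at 0h, 0 at 2h and 5 at 12h, and the difference of changes 0 at 6h and 1 at 12h. With library totals, KO against WT gave 0 at 0h and 7 at 2h, and the difference of changes 0 at 6h and 2 at 12h. Without the filter the difference at 6h gave 0, and DESeq2 gave 1 for KO against WT at 6h. Without WT mice 1 and 4, WT at 2h gave 23 (6 higher, 17 lower), KO at 2h 20, KO against WT 15 (4 higher, 11 lower), 0 and 10 at 0, 2 and 12h, and the differences 6 and 11 at 6 and 12h; with the compared groups alone as well, KO against WT gave 0, 0, 5 and 34 at 0, 2, 6 and 12h. Without the naive library of WT mouse 3 too, WT gave 28 (23 higher, 5 lower), 43 and 44 at 2, 6 and 24h, KO against WT 17 (16 higher, 1 lower) at 0h, and the differences 27 and 38.

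Signs turned for single genes. Without WT mice 1 and 4 and that library, KO against WT at 0h was 0.37 for Psma6, 0.31 for Psmc1, 0.21 for Psmc4, 0.24 for Psmc5, 0.17 for Psmd4, 0.10 for Psmd3 and 0.20 for Psmd12, and the 12h difference of Psmc5 was -0.16. Psmc3ip at 2h was 0.37 without WT mice 1 and 4, and 0.45 with the compared groups alone. Psmb1 in KO at 24h was -0.10 with RLE, -0.14 with library totals, -0.0059 without the filter, -0.10 with DESeq2 and -0.12 with the groups alone. Without WT mice 1 and 4, ratios turned sign as well, none past the threshold in either form. The exact permutation test of 5 KO against 3 WT mice cannot go under p = 0.01786. A lone comparison could thus not pass there after adjustment. Psmb8 to Psmb5 was 1.09, 1.02 and 0.48 for the difference at 6, 12 and 24h, and -0.61, 0.48 and 0.41 for KO against WT at 0, 6 and 12h; Psmb9 to Psmb6 was 0.34 at 12h; Psmb10 to Psmb7 was 2.24, 2.16 and 1.50 for the difference, and -0.0606, 0.65 and 0.57 for KO against WT at 2, 6 and 12h.

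Leaving out 1 mouse at a time gave 6 to 15 calls in WT at 2h, 19 to 35 in WT at 6h and 6 to 18 in KO at 2h. The calls over all genes in these fits are not given here. KO against WT gave 1 to 25, 0 to 9, 0 to 6 and 0 to 8 at 0, 2, 6 and 12h, and the difference 0 to 6 and 1 to 10 at 6 and 12h. Psmb1 in KO at 24h ran from -0.0307 to 0.23, Psmd4 at 0h from -1.01 to 0.0472, and Psmb10 in WT from -2.19 to 0.21, -2.27 to 0.26 and -2.21 to 0.0226 at 6, 12 and 24h. For Psmb10 to Psmb7, KO against WT ran from -0.65 to 1.15 at 0h and -0.34 to 0.25 at 6h, and the difference from -0.41 to 0.95, -1.42 to 0.84, -2.21 to 0.44 and -1.79 to 0.43 at 2, 6, 12 and 24h. For Psmb8 to Psmb5 these were -0.19 to 0.53, -0.40 to 0.0818, -0.22 to 0.39, -0.89 to 0.26, -1.03 to 0.17 and -0.89 to 0.057. Psmb9 to Psmb6 at 24h ran from -1.04 to -0.68. The cause of these shifts was not tested. Counts of Psma8 and Psmb11 limit any statement on them.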
